A study of Mus musculus with 2 samples.

Results

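The genes described here encode enzymes that make amino acids, one-carbon units and polyamines, together with the transcription factor ATF4 and genes of the stress response around it. They were chosen by symbol, 42 in all, and 38 of them are among the 10219 genes of the count table; Aldh1l2, Bcat2, Bckdha and Cbs were not measured here. The cells were regulatory T cells (Tregs), sorted from fat of C57BL/6 mice at an age of 4 months, and their transcripts were counted by RNA sequencing. One group was Foxp3Cre, the control, in which Cre recombinase is expressed with Foxp3, the lineage factor of Tregs. The other was Hif1afl/fl;Foxp3Cre, the knockout, in which the same Cre acts on a floxed Hif1a gene, so both groups carry the Cre. There was 1 library per genotype, and the labels state neither how many mice a library pools nor which exons are floxed. The values below therefore carry no error between animals, and no replicate stands behind any difference. Intervals cover counting error only.

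ATF4 is a transcription factor whose translation rises when the initiation factor eIF2 is phosphorylated, for example when amino acids are scarce or the endoplasmic reticulum is stressed. It binds C/EBP-ATF response elements and activates genes for amino acid synthesis, amino acid import and tRNA charging, and in prolonged stress also genes linked to cell death. The serine pathway draws on an intermediate of glycolysis and feeds the folate cycle, which supplies one-carbon units for purines, thymidylate and methionine, and activated T cells are known to use it during growth.

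Summed over the listed genes, the knockout library had 11337415 counts and the control library 13472317. Counts were scaled by TMM to counts per 1000000 (CPM). Hif1a, the targeted gene, was at 780 CPM against 1273 CPM in the control, 1.63-fold lower (95% counting interval 1.59 to 1.68), over a whole gene whose floxed part is not known. Of 14 T cell markers 14 were measured, with a median log2 ratio of knockout over control of 0.28, and 2 of them were higher by 2-fold or more. All 8 markers of Tregs were counted in both libraries, but 6 were lower in the knockout library by 2-fold or more, and the median was -2.49. Klrg1, Il1rl1, Pparg and Gata3 were 36.6-fold, 35.6-fold, 21.3-fold and 4.43-fold lower, Il2ra was 7.14-fold and Foxp3 2.24-fold lower, and Ctla4 and Ikzf2 had log2 ratios of -0.52 and -0.14. The part of these differences in the results below was not tested. Of 17 macrophage markers 6 were measured, and their summed level was 3657 CPM against 245 CPM in the control; the defining markers Csf1r, Adgre1 and Mrc1 were among the 11 not measured. Of 8 dendritic cell markers 7 were measured, 6 of them higher by 2-fold or more, and Xcr1 was lower. The median of the 7 was 1.45 and their sum 2389 CPM against 741 CPM. Most of the knockout sum came from Cd74, H2-Ab1, H2-Aa and H2-Eb1, at 1068, 626, 419 and 234 CPM. Flt3 stood at 21.1 against 10.4 CPM and Zbtb46 at 15.9 against 5.79 CPM. Ighm, 1 of 2 measured B cell markers out of 5, was also higher by 2-fold or more. So was Dcn, 1 of 2 measured stromal markers out of 6. The other measured markers of the B cell and stromal lists, Cd79b and Ly6a, had log2 ratios of -0.31 and -0.84. Ly6a stood at 2499 CPM in the knockout library against 4477 CPM, and Dcn at 17.8 against 5.12 CPM. Ly6a was not taken as a measure of stromal cells. The part of these cell types in the results was not tested. Of 6 markers of dividing cells 5 were higher by 2-fold or more. In bulk libraries fewer cells of a type and less RNA per cell cannot be told apart.

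Of the 38 measured genes, 23 were lower in the knockout library by 2-fold or more, 3 were higher by 2-fold or more and 12 lay within 2-fold. Among all listed genes the shares past the same thresholds were 8.78% lower and 11.4% higher. The median log2 ratio, computed on CPM + 0.5, was -1.25 over the members and 0.0054 over all listed genes. The 27 enzymes and the 11 stress response genes differed in make-up, with 20 and 3 genes past 2-fold downwards and 0 and 3 upwards. At 4-fold or more, 11 members were lower, against 1.85% of all listed genes, and at 8-fold or more 5 were lower, against 0.421%. Those 5 were Bcat1, Pycr1, Cth, Chac1 and Asns. With the median log2 ratio of T cell markers set to 0, the members split into 24 lower and 1 higher. That scaling moved the median of all genes to -0.27 and the split of all listed genes from 897 lower and 1170 higher to 1497 lower and 818 higher.

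**Figure D1:**
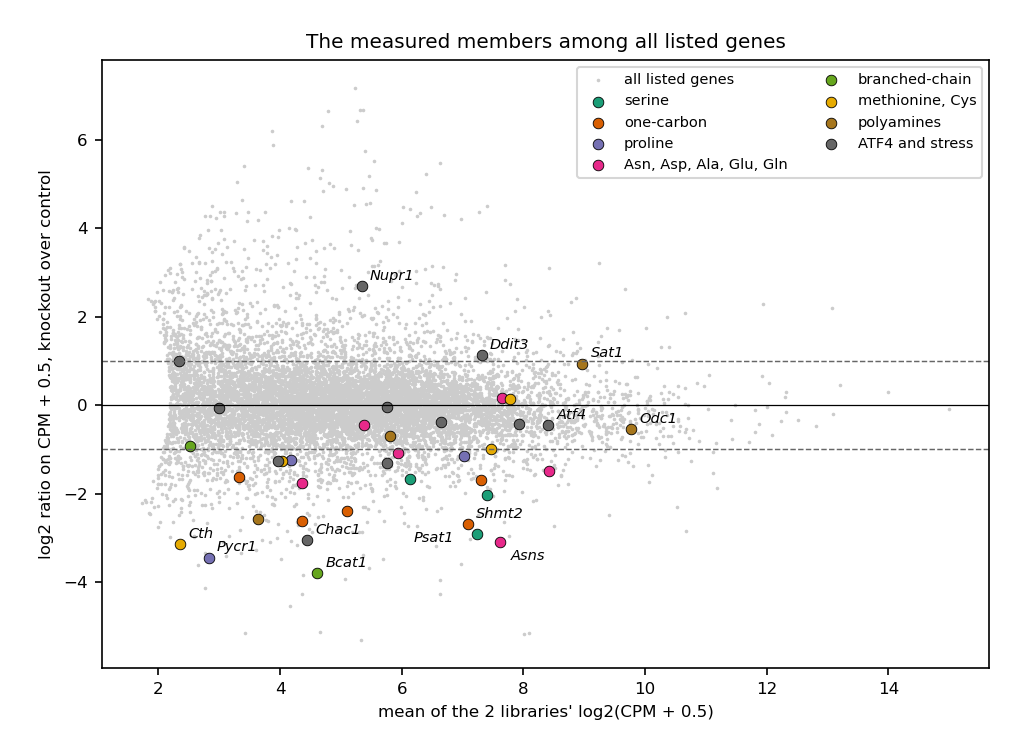
Each grey point is 1 of the 10219 listed genes and each coloured point a measured member, with the mean log2 level of the libraries on the x axis and the log2 ratio of knockout over control on the y axis, both on CPM + 0.5. Dashed lines mark 1 log2 unit. Members lie mostly below the lower line at levels from Cth to Asns. Of the members at higher mean levels than Asns, only Got1 lies below it. Nupr1 has the highest ratio.

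The upstream sequences of 5 members are shown because they hold the core letters of a C/EBP-ATF response element, TGATGNAA, on either strand. They run from 250 bases before the RefSeq transcription start to the base before it, 5′ to 3′ on the gene's strand, in build GRCm38.p6, which is not the build named for the counts. Capitals mark the match, which reads TTGCATCA where it lies on the opposite strand.
Asns (chr6:7693210-7693459, minus strand): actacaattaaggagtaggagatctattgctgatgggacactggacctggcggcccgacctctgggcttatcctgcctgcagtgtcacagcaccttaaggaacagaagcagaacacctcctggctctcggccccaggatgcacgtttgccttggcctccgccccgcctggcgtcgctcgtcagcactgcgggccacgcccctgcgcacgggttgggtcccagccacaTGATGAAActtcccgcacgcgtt
Got1 (chr19:43524606-43524855, minus strand): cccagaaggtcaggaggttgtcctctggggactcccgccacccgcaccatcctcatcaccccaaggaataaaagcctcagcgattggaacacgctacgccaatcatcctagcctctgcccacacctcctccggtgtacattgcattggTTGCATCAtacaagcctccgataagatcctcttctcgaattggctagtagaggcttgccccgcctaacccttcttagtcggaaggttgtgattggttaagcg
Pycr1 (chr11:120643749-120643998, minus strand): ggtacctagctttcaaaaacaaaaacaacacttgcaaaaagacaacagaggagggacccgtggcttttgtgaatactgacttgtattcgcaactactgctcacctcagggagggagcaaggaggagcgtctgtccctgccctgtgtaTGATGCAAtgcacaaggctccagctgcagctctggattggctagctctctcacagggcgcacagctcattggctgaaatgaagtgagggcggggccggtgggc
Chac1 (chr2:119350992-119351241, plus strand): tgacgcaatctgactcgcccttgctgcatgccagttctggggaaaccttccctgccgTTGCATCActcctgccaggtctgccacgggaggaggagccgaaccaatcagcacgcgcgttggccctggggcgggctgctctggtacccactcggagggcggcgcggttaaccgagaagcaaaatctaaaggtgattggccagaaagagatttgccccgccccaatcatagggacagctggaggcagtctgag
Nupr1 (chr7:126625471-126625720, minus strand): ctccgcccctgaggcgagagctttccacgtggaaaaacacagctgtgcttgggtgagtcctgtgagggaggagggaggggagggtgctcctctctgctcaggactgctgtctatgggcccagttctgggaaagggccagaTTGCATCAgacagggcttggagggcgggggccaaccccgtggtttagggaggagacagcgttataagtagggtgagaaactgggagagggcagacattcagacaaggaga

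RefSeq promoter windows of 300 bases, with 250 bases before and 50 after the start, were matched for 34 of the 38 members, in 39 windows; Cth, Ppp1r15b, Pycrl and Srm were not matched. TGATGNAA was found in 6 of the 39 windows, or 15.4%, against 2.16% of the 9659 windows of listed genes and 3.97% of all 32851 RefSeq windows. The letters began 23 bases before the start in Asns, 102 in Got1, 103 in Pycr1, 110 in Nupr1 and 193 in Chac1. In Trib3 they began 14 bases after it, with the start base counted as 0. Asns, Got1, Pycr1, Chac1 and Trib3 were lower in the knockout library by 2-fold or more and Nupr1 was 6.65-fold higher. Of all 38 measured members 23 were lower by 2-fold or more. TGATGNAA was in 5 of the 23 windows of members at least 2-fold lower and in 1 of the 16 windows of the other members. The core of the hypoxia response element, ACGTG or GCGTG on either strand, was in 31 of the 39 windows, or 79.5%, against 63.4% of the windows of listed genes. Taken singly, GCGTG was in 74.4% of the member windows against 51.8%, and ACGTG in 25.6% against 26.3%. Either core was in 78.3% of the windows of members at least 2-fold lower and in 81.25% of those of the other members. The E-box CACGTG, which contains ACGTG, was in 3 windows, those of Aldh18a1, Nupr1 and Sms. That is 7.69% of the member windows, against 10.3% of the windows of listed genes. These shares describe letters in a fixed window and were not tested.

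The 3 enzymes that turn a glycolytic intermediate into serine were all lower in the knockout library. Phgdh, which takes the first step, had 954 counts or 83.0 CPM in the knockout library against 4499 counts or 338 CPM. It was 4.08-fold lower (3.80 to 4.38). Psat1, the aminotransferase of the second step, had 625 and 5460 counts, or 54.4 and 411 CPM. It was 7.55-fold lower (6.95 to 8.22), the largest difference of the 3. Psph, the phosphatase that releases serine, stood at 39.2 and 125 CPM and was 3.20-fold lower (2.89 to 3.56). Together the transcripts of the pathway summed to 177 CPM in the knockout library against 875 CPM.

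All 5 measured folate enzymes were at least 2-fold lower, in mitochondria and in the cytosol alike. Shmt2, which in mitochondria splits serine into glycine and a folate-bound one-carbon unit, had 609 counts in the knockout library against 4582, or 53.0 and 345 CPM. Its level was 6.5-fold lower (5.97 to 7.09). Mthfd2, the mitochondrial dehydrogenase and cyclohydrolase, had 1012 and 3767 counts, or 88.1 and 283 CPM, and was 3.22-fold lower (3.0 to 3.45). Mthfd1l, which releases formate from mitochondria, was 5.36-fold lower (4.55 to 6.36), at 14.4 and 77.5 CPM. In the cytosol, Mthfd1, the trifunctional enzyme, was 6.47-fold lower (5.19 to 8.16) from 90 and 674 counts. Shmt1, the cytosolic counterpart of Shmt2, was 3.26-fold lower (2.44 to 4.40) from 60 and 226 counts. The median log2 ratios were -2.38 for the 3 mitochondrial and -2.12 for the 2 cytosolic enzymes, and the ranges of the 2 groups overlapped.

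The other folate genes were more mixed. Of 19 genes 16 were measured, 6 of them lower by 2-fold or more, against 8.78% of all listed genes, with a median log2 ratio of -0.67. Slc19a1, the folate carrier of the plasma membrane, was 3.71-fold lower (2.90 to 4.80). Atic and Gart, which use formyl groups in purine synthesis, were 3.48-fold (2.93 to 4.16) and 2.73-fold (2.26 to 3.33) lower. The 6 markers of dividing cells summed to 179 CPM in the knockout library against 68.2 CPM, with log2 ratios from 0.80 to 3.21, and their part in these values was not tested.

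Proline synthesis had 3 measured genes, all lower. Aldh18a1, which makes the shared precursor from glutamate, was 2.22-fold lower (2.07 to 2.40), at 86.8 and 193 CPM. Pycr1, a mitochondrial reductase of the last step, had 19 counts in the knockout library against 305 in the control, or 1.65 and 22.9 CPM. It was 13.9-fold lower, with an interval of 8.73 to 23.4 that the few knockout counts make wide. Pycrl, the related cytosolic reductase, was 2.43-fold lower (1.98 to 2.99).

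Asns, the asparagine synthetase gene, had 770 counts in the knockout library against 7599 in the control. At 67.0 and 572 CPM it was 8.53-fold lower (7.92 to 9.20), and it was the most abundant per length of the 5 members lower by 8-fold or more. The aminotransferases were lower to different degrees. Got1, the cytosolic aspartate aminotransferase, was 2.79-fold lower (2.67 to 2.93), at 205 and 572 CPM, while Got2, its mitochondrial counterpart, was 1.37-fold lower (1.21 to 1.56). The intervals of the 2 genes did not overlap. Gpt2, the mitochondrial alanine aminotransferase, was 3.51-fold lower (2.87 to 4.31), whereas Gpt, its cytosolic counterpart, from the list of other amino acid enzymes and named after its value was seen, had a log2 ratio of 0.14 with an interval that included equality. Glul, which makes glutamine, was 2.13-fold lower (1.92 to 2.37), at 41.9 and 89.2 CPM. Glud1, the glutamate dehydrogenase, stood at 212 and 190 CPM, a ratio of 1.12 (1.06 to 1.18) whose log2 value changed sign to -0.12 when scaled on T cell markers.

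Bcat1, the cytosolic branched-chain aminotransferase, showed the largest difference among all members. It had 70 counts in the knockout library against 1206 in the control, or 6.09 and 90.7 CPM, and was 14.9-fold lower (11.7 to 19.2). By log2 ratio it was the 13th lowest of all listed genes. Bckdhb, a subunit of the branched-chain ketoacid dehydrogenase, was 2.02-fold lower from 42 and 98 counts, with an interval of 1.39 to 2.97 on both sides of the 2-fold threshold, and total-count scaling brought it within 2-fold. Of the 19 measured genes in a list of other amino acid enzymes, 1 passed 2-fold in each direction. Among all listed genes 8.78% were lower and 11.4% higher. The median log2 ratio of the list was 0.14, or -0.11 when scaled on T cell markers. The lower gene was Bckdk, the kinase that inhibits that dehydrogenase, at 2.05-fold (1.79 to 2.36). The higher gene was Arg1, an arginase that macrophages also express, at 13.2-fold (10.7 to 16.3) and 99.0 against 7.52 CPM. The summed macrophage marker level was higher in the same library, and its part in this value was not tested.

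In the methionine cycle the catalytic and the regulatory subunit of the enzyme that makes S-adenosylmethionine differed. Mat2a, the catalytic subunit, stood at 126 and 249 CPM and was 1.98-fold lower (1.86 to 2.11), just inside the threshold, and passed it with upper-quartile scaling and when scaled on T cell markers, there at a log2 ratio of -1.27. Mat2b, the regulatory subunit, stood at 231 and 209 CPM, a ratio of 1.10 (1.05 to 1.17), and its log2 ratio of 0.14 became -0.14 when scaled on T cell markers. Ahcy, which clears S-adenosylhomocysteine, was 2.47-fold lower (1.99 to 3.09). Cth, which makes cysteine from cystathionine, had 14 counts in the knockout library against 195 in the control and was 12.04-fold lower (7.01 to 22.4).

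The polyamine enzymes differed among themselves, with 1 of 4 at least 2-fold lower. Odc1, the ornithine decarboxylase that commits ornithine to polyamines, had 8257 counts in the knockout library against 13972 in the control. At 719 and 1051 CPM it was 1.46-fold lower (1.42 to 1.5). Srm, the spermidine synthase, was 6.44-fold lower (4.83 to 8.75), from 53 and 395 counts, and Sms, the spermine synthase, was 1.63-fold lower (1.46 to 1.82). Sat1, which acetylates spermidine and spermine for breakdown or export, stood at 692 CPM in the knockout library against 361 CPM, a ratio of 1.92 (1.85 to 1.99) in the other direction. The macrophage marker sum was higher in the same library, and its part in the Sat1 value was not tested. Of 16 measured further genes of methionine salvage and polyamine control, 2, or 12.5%, were at least 2-fold lower and 2 higher. The shares of all listed genes were 8.78% and 11.4%. Mtap, the salvage phosphorylase, and Smox, the spermine oxidase, were 2.77-fold (2.36 to 3.27) and 2.25-fold (2.05 to 2.48) lower. Ahcyl2, related in sequence to Ahcy, and Adk, the adenosine kinase, were 2.83-fold (2.61 to 3.06) and 2.19-fold (1.99 to 2.42) higher.

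**Figure D2:**
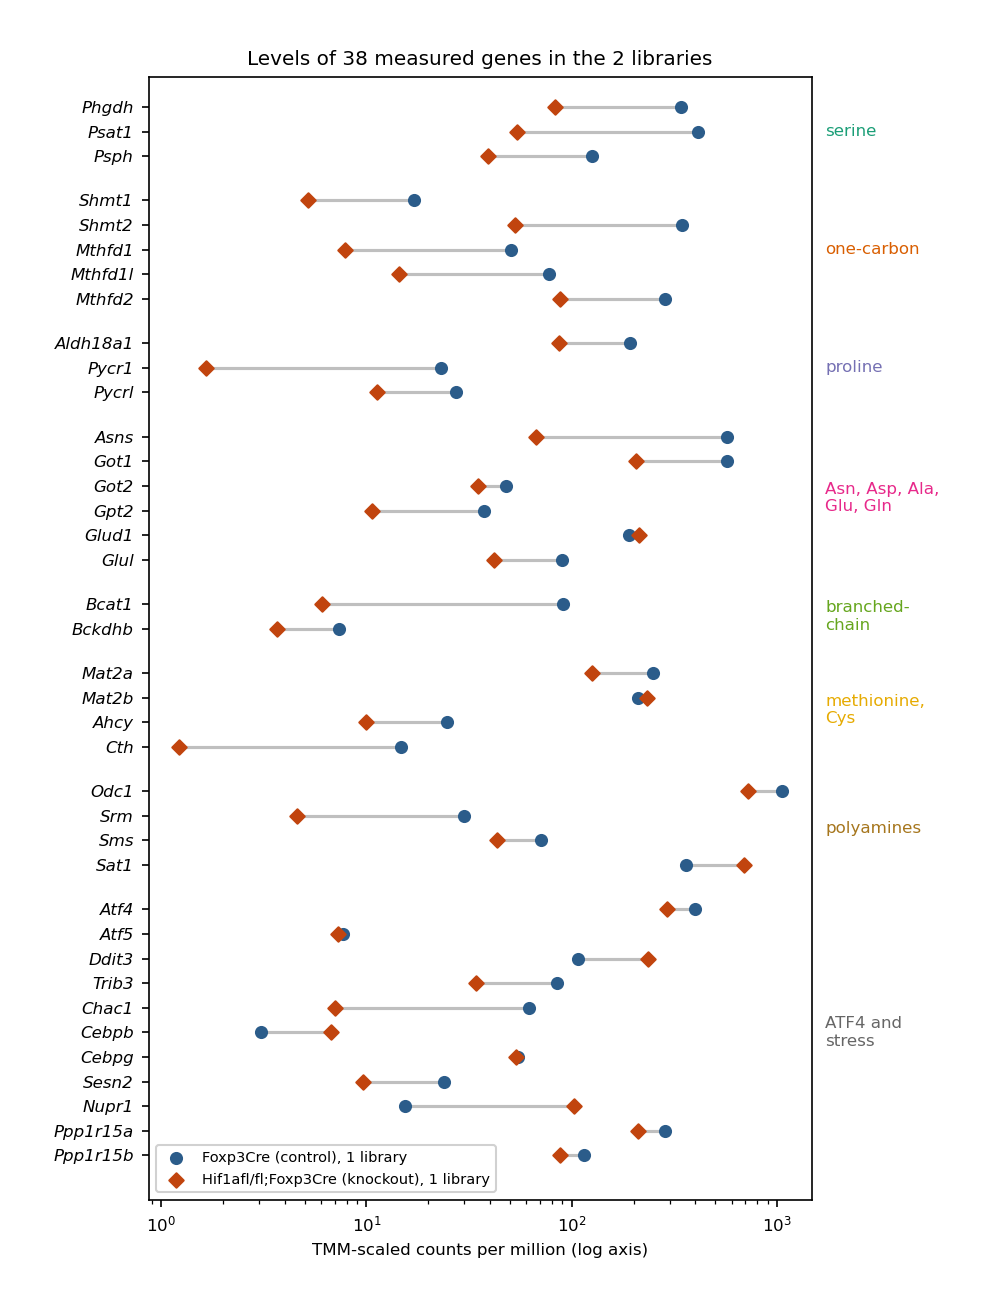
TMM-scaled CPM, on a log axis, of the 38 measured members in the control library (circles) and the knockout library (diamonds), grouped by role. A grey line joins the 2 values of a gene. In the serine, one-carbon and proline groups every diamond lies left of its circle, while Glud1, Mat2b, Sat1, Ddit3, Cebpb and Nupr1 lie the other way.

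Transcripts of ATF4 itself differed by less than those of most of the measured enzymes. Atf4 had 3336 counts in the knockout library against 5265 in the control, or 290 and 396 CPM, and was 1.36-fold lower (1.31 to 1.43). Transcript counts do not measure the protein, whose translation is the regulated step. Cebpg, a dimer partner of ATF4, stood at 53.3 and 54.5 CPM, with an interval that included equality (ratio of control over knockout 0.916 to 1.14). Atf5, a related factor, stood at 7.31 and 7.67 CPM with an interval of 0.779 to 1.42. The log2 ratio of Cebpg, -0.03, changed sign to 0.0087 with total-count scaling. When scaled on T cell markers, Cebpg was at -0.31 and Atf4 went from -0.45 to -0.73, both outside their counting intervals. Atf5, at -0.33 there, stayed within its interval.

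Among the genes that ATF4 is known to induce, 3 of the stress response members were at least 2-fold lower. Of all 11 stress response members 3 were lower and 3 higher by 2-fold or more, with a median log2 ratio of -0.37. The shares of all listed genes were 8.78% lower and 11.4% higher. Chac1, whose product degrades glutathione, had 81 counts in the knockout library against 819 in the control, or 7.05 and 61.6 CPM. It was 8.74-fold lower (6.95 to 11.1). Trib3, a pseudokinase that restrains ATF4, was 2.48-fold lower (2.21 to 2.79), and Sesn2, a leucine-binding inhibitor of mTORC1 signalling, was 2.48-fold lower (1.99 to 3.11). The 2 regulatory subunits of the phosphatase that acts on eIF2 lay within 2-fold. Ppp1r15a, the stress-induced subunit, and Ppp1r15b, the constitutive one, were 1.35-fold (1.28 to 1.42) and 1.30-fold (1.20 to 1.40) lower.

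The other 3 that passed 2-fold were higher in the knockout library. Ddit3, which encodes the factor CHOP, had 2704 counts in the knockout library against 1420 in the control, or 235 and 107 CPM, and was 2.2-fold higher (2.07 to 2.35). Nupr1, a small stress-induced nuclear protein, had 1179 and 205 counts, or 103 and 15.4 CPM, and was 6.65-fold higher (5.73 to 7.76). Cebpb, a C/EBP factor that macrophages also express, was 2.17-fold higher (1.47 to 3.26) from 77 and 41 counts. When scaled on T cell markers, Nupr1 alone remained at least 2-fold higher, while the log2 ratios of Ddit3 and Cebpb became 0.85 and 0.74. The 6 measured macrophage markers were all higher there by 2-fold or more, with log2 ratios from 3.21 to 7.17. Their part in these 3 values was not tested.

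**Figure D3:**
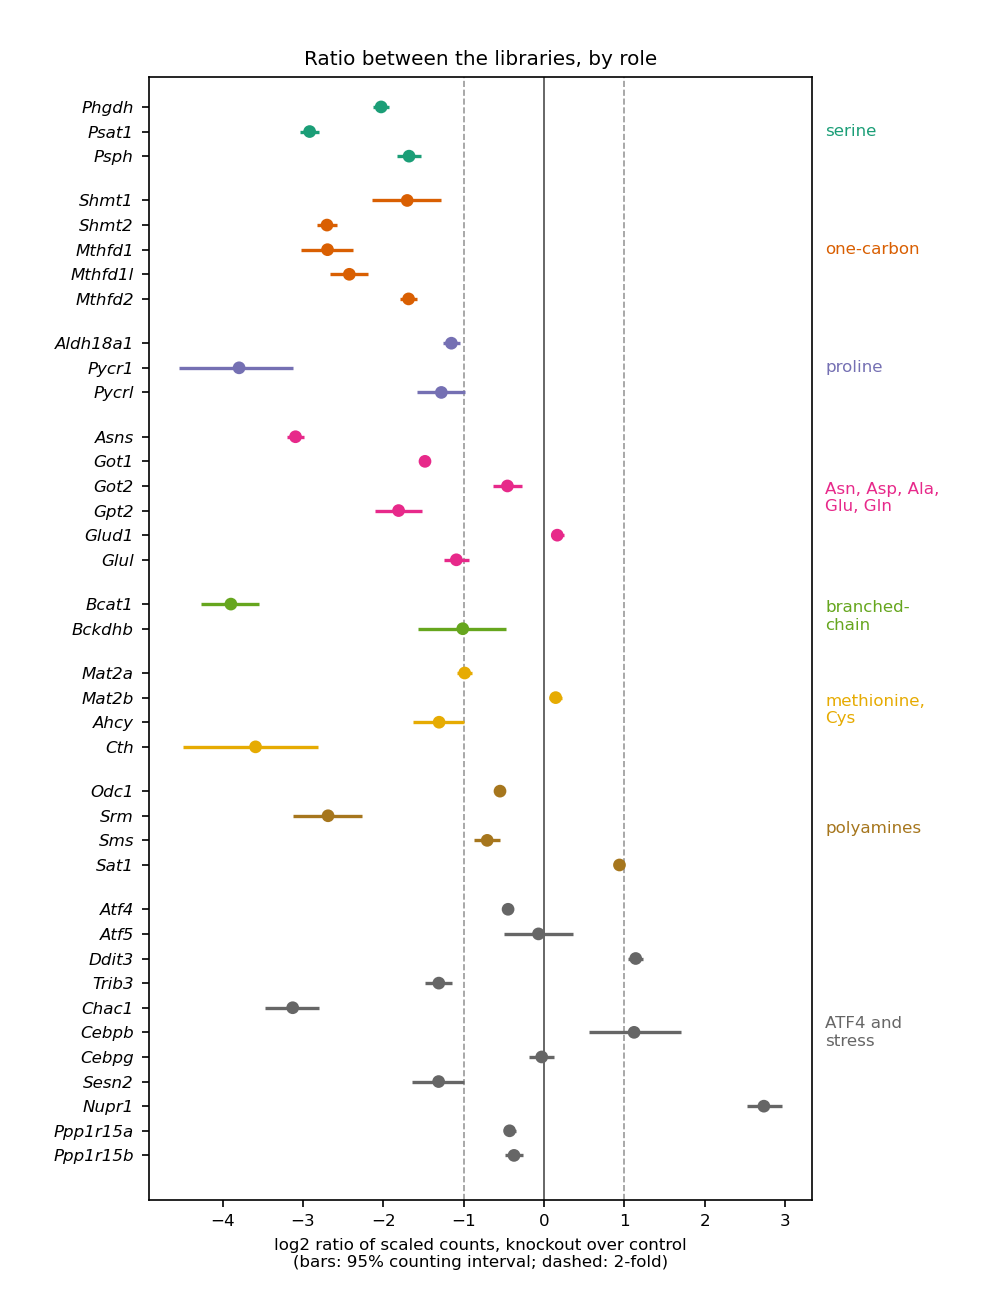
The log2 ratio of scaled counts, knockout over control, for the 38 measured members by role, with horizontal bars for the 95% counting interval and dashed lines at 2-fold. Serine, one-carbon and proline genes lie left of the lower line. The ATF4 and stress group spreads from Chac1, 8.74-fold lower, to Nupr1, 6.65-fold higher.

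Further ATF4 targets were lower in most cases. Of 31 genes 27 were measured, 16 of them lower by 2-fold or more and 2 higher, with a median log2 ratio of -1.45. The shares of all listed genes were 8.78% lower and 11.4% higher. The 12 tRNA synthetase genes in that list were all below 0, and 8 of them were at least 2-fold lower. Stc2, a secreted glycoprotein gene, was 5.23-fold lower (3.28 to 8.74). Eif4ebp1, an inhibitor of cap-dependent translation, was 4.18-fold lower (3.90 to 4.48), at 87.8 and 367 CPM. Slc1a4, a transporter of small neutral amino acids, was 4.16-fold lower (3.21 to 5.46). The 2 higher genes were Slc7a11, the cystine transporter subunit, at 9.19-fold (7.96 to 10.7) and 145 against 15.8 CPM, and Gdf15, a stress cytokine, at 6.94-fold (3.99 to 12.9) from 90 and 15 counts. The summed macrophage marker level was higher in the same library, and its part in these 2 values was not tested.

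Upstream of ATF4, the 4 eIF2 kinases and the subunits of eIF2 and its exchange factor eIF2B lay mostly within 2-fold. Of 12 genes, 1, or 8.33%, was at least 2-fold lower and 0 were higher, with a median log2 ratio of -0.15. Over all listed genes 8.78% were lower and 11.4% higher, so most of those also lay within 2-fold. The lower gene was Eif2b3, a subunit of eIF2B, at 3.65-fold (3.0 to 4.48). In the other branches of the unfolded protein response of the endoplasmic reticulum, run by IRE1 and ATF6, 18 genes were measured. Of these, 9, or 50%, were at least 2-fold lower and 0 were higher, with a median of -1.08. Hyou1, a chaperone of that compartment, was 4.03-fold lower (3.24 to 5.06), Pdia6, a disulfide isomerase, 3.23-fold lower (3.03 to 3.45), and Calr, the chaperone calreticulin, 2.77-fold lower (2.64 to 2.90).

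**Figure D4:**
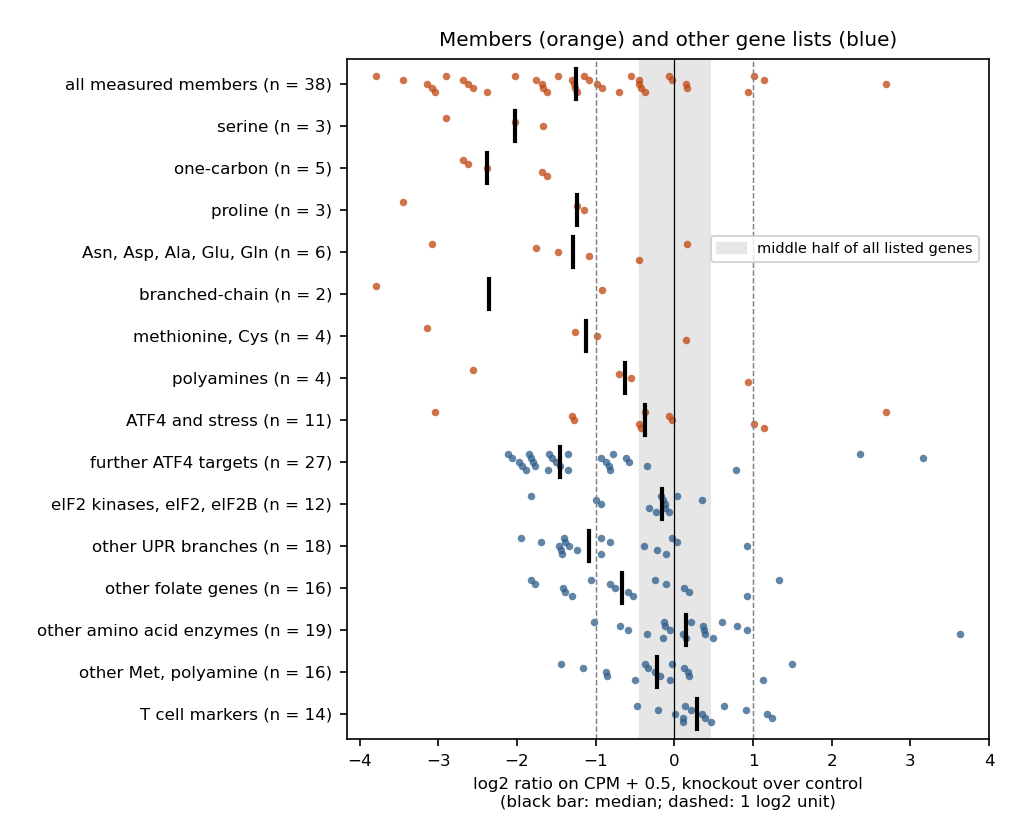
Each point is a gene's log2 ratio on CPM + 0.5, knockout over control, in the member groups (orange) and in other gene lists (blue), with a black bar at each median. The grey band holds the middle of all listed genes between the quartiles. Medians run from -2.38 for the one-carbon members to 0.28 for T cell markers.

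The order of the members by level per length also differed between the libraries. Levels were expressed as CPM per kilobase of merged exons. In the control library Odc1 stood first at 309, followed by Got1 at 225, Asns at 209 and Atf4 at 168. In the knockout library Sat1 stood first at 249.5, followed by Odc1 at 211, Ddit3 at 137 and Atf4 at 123. Asns moved from rank 3 to rank 13 of the 38, Psat1 from 8 to 18 and Shmt2 from 7 to 15, while Nupr1 moved from rank 32 to rank 9. Pycr1 was the lowest in the knockout library at 0.42 and Cebpb the lowest in the control library at 2.05. With 1 library per genotype, differences between neighbouring ranks have no estimate of spread.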

How the data were processed

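The submitters' processing notes name TopHat2 2.0.12, HTSeq 0.6.1, Bowtie2 2.2.3, edgeR and the build mm8. The sources used here do not give the annotation, the strand setting or the handling of shared reads. The authors deposited whole-number read counts per gene, not normalized. Beside them stand a mean count and a likelihood ratio statistic, which are scores in the deposited table, a signed ratio of raw counts, a log2 fold change and log2 CPM, and a p-value and adjusted p-value, named as edgeR names them, per the file headers. The p-values were not used, since 1 library per genotype gives no spread between replicates. The lowest mean of the 2 counts in the table was 50.5, so weakly counted genes have no row.

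Columns were assigned to genotypes by library names, which the descriptions of the samples give. Counts of all listed genes were scaled by TMM (edgeR 4.0.16, R 4.3.3). Folds are ratios of scaled counts, with exact conditional binomial (Clopper-Pearson) 95% intervals (scipy 1.17.1), which cover counting error only, since PCR copies are not independent molecules. The 2-fold rule was applied to these folds, and log2 ratios carry a pseudocount of 0.5 CPM. The calculation of folds and intervals was run on simulated counts that held counting error only (Poisson). Those counts follow the model the interval assumes, so they cannot show how well it covers PCR copies, spread between animals or cell mixture. The T cell scaling set the median log2 ratio of 14 markers to 0.

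Exon lengths came from GENCODE M21 and promoters from RefSeq, both on GRCm38. Counts of 14 members with an exon overlapping another annotated gene are uncertain: Atf5, Bcat1, Cebpb, Cebpg, Ddit3, Glul, Got2, Mat2a, Mthfd1, Ppp1r15a, Ppp1r15b, Psph, Shmt1 and Shmt2. Every measured member is named. From each further list, up to 3 genes at each end are named among those at least 2-fold different with an interval excluding equality. A result of the further folate list is not reported here. The members and lists were chosen with earlier results of these data known.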

Additional observations from a re-analysis of the deposited data

How the results depend on the processing

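The alternatives were 4 other scalings, TMM without rRNA rows, 2 other pseudocounts, a minimum mean of 100 counts, other fold rules and, for single genes, the log2 fold changes of the authors' deposited table. The count of 23 members at least 2-fold lower became 15 under a 3-fold rule, against 3.48% of all listed genes. It became 25 under a 1.5-fold rule, against 19.0%, and 18 with the whole counting interval beyond 2-fold, against 6.05%. Under the others it lay between 22 and 24, against shares from 8.26% to 14.6%. The count of 3 higher members became 1 under the 3-fold rule, against 5.65% of all listed genes. It was also 1 when scaled on T cell markers, against 8.0%. Under the 1.5-fold rule it became 4, against 20.7%. It was 2 with the whole counting interval beyond 2-fold, against 7.90%, and 2 with the minimum of 100 counts, against 10.1%. Under the other settings it stayed at 3. Scaled on T cell markers, the share of all listed genes rose from 8.78% to 14.6% lower and fell from 11.4% to 8.0% higher. In the same setting, the count of lower genes rose from 1 to 3 among the 12 eIF2 genes. It was 2 there with median-of-ratios or upper-quartile scaling, against 8.89% and 9.03% of all listed genes. Scaling on T cell markers also raised it from 1 to 2 among the 19 other amino acid enzymes. Among the 16 other methionine and polyamine genes it rose from 2 to 4, and the higher genes went from 2 to 1. The minimum of 100 counts left 1 of the 2 higher ATF4 targets. All 120 alternative values of list medians stayed within the binomial interval of the median, or the range of lists under 6 genes, which is a weak check. Of 304 alternative values of single members, 281 stayed within the counting interval. The other 23 all came from the scaling on T cell markers, which moved most members out of their intervals. No paired analysis was possible because each genotype has 1 library, and for the same reason no replicate could be left out. Depth limits the genes with the fewest knockout counts, Cth and Pycr1, whose intervals are the widest of the members lower by 8-fold or more.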
